A study of Sus scrofa with 36 samples.

Results

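Small RNA libraries from the hearts of newborn pigs were compared between postnatal day 1 (P1) and day 3 (P3). The 6 libraries, 3 at each age, are the P1 and P3 columns of the miRNA table that holds the samples sequenced by CD Genomics, and they were taken by age alone from the 36 samples of the series. Both groups were domestic Yorkshire pigs fed normally, no treatment is named for either, and whole hearts were used, so that every library mixes RNA of myocytes and nonmyocytes. The labels give neither the sex nor the litter of a pig. They number the samples of an age from 1 to 3 while the table numbers its columns from 4 to 6, so the libraries are called here by the column number, and that number was not taken to join a P1 pig with a P3 pig. The comparison asks which miRNAs differ over the first days after birth, in which the pig heart loses its short capacity to regenerate.

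miRNAs are short noncoding RNAs cut from hairpin precursors. One strand, from the 5′ or the 3′ arm of the hairpin, is loaded into an Argonaute protein and lowers the stability and translation of mRNAs that pair with its seed, the bases near its 5′ end. In the newborn heart, cardiomyocytes turn from glycolysis in a hypoxic fetus to fatty acid oxidation in air and withdraw from the cell cycle, and miRNAs of muscle, metabolism and the cell cycle are known parts of that transition. The names carry the prefix ssc- for Sus scrofa in the table, which is left out below.

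The table pairs mature miRNAs with their precursors and lists 411 mature names, of which 316 had at least 1 count in the 6 libraries. The 248 names that reached 10 counts in 3 or more of the 6 libraries were tested, and the other 163 were not. Some names share their values in each of the 6 libraries: miR-9 with miR-9-1 and miR-9-2, miR-218 with miR-218-5p and miR-218b, and miR-490 with miR-490-3p. The 248 names thus hold 243 different sets of values. Whether such names repeat the same reads or hold shares of divided reads was not tested, so their CPM may be part of a level. Values that are not equal can be tied too. For example, miR-199a-3p and miR-199b-3p rose and fell together over the 6 libraries. Counts per library ranged from 2921130 in P3 replicate 6 to 5664510 in P3 replicate 5, and the median count of a tested name in a library was 323.5. Levels are given as CPM, the counts scaled to a common library total, after TMM normalization, which sets the bulk of the miRNAs equal between libraries, and a fold change is that of P3 over P1.

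The libraries had the miRNAs of heart muscle. miR-1, the main miRNA of striated muscle, took 30.7% to 39.5% of the counts of a library, and the 10 most abundant names together took 76.6% to 80.4%. The miRNAs that lie in myosin heavy chain genes were present in every library, with miR-208b between 1003 and 1682 CPM and miR-499-5p between 13669 and 17087 CPM. One library stood apart. P3 replicate 6 had Pearson correlations of 0.976 to 0.9845 with the other 5 libraries across the log2 CPM of the tested miRNAs, whereas the other 5 had 0.9865 to 0.993 among themselves. Set against all 12 small RNA libraries of the 4 ages, its nearest library was P7 replicate 4 (r = 0.989), and its mean correlation was 0.987 with the P7 libraries, 0.9843 with the other P3 libraries and 0.9797 with the P1 libraries. miRNAs are not independent of each other, and these correlations describe the libraries only. For many of the miRNAs below, the value without P3 replicate 6 is given as well.

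No miRNA passed a Benjamini-Hochberg adjusted p of 0.05 in the comparison of P1 with P3. With edgeR's quasi-likelihood test, 0 of 248 names passed and the lowest adjusted p was 0.0906, while 37 names (14.9%) had an unadjusted p under 0.05. The thresholds of the study, which ask for a log2 fold change beyond 0.5 in size at an unadjusted p no higher than 0.05, were passed by 29 names (11.7%), 21 of them higher at P3 (8.47%) and 8 lower (3.23%). The 3 P3 libraries were all above or all below the 3 P1 libraries, without overlap, for 41 names (16.5%), 28 of them higher at P3 (11.3%) and 13 lower (5.24%). With 3 libraries against 3, an exact two-sided permutation test of a single miRNA cannot give a p below 0.1. Log2 fold changes were above 0 for 52% of the names and below 0 for 48%, their median size was 0.21, and 8 names exceeded 1.

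The number of calls depended on the test and on the libraries in the fit. DESeq2's Wald test on the same 6 libraries gave 11 names at an adjusted p under 0.05, 8 higher and 3 lower at P3. edgeR's test on all 12 small RNA libraries, in which the 4 ages share 1 estimate of the spread, also gave 11, 7 higher and 4 lower, and 10 names were in both sets. These 10 are miR-95, miR-133b, miR-378, miR-378b-3p and the 3 names of miR-9, which were higher at P3, and miR-132, miR-210 and miR-215, which were lower. DESeq2 alone added miR-874, and the fit of 12 libraries alone added let-7i. limma voom gave 0 calls, with 31 names at an unadjusted p under 0.05. The words higher and lower below compare values, and each miRNA is described with its test in the 6 libraries.

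**Figure D1:**
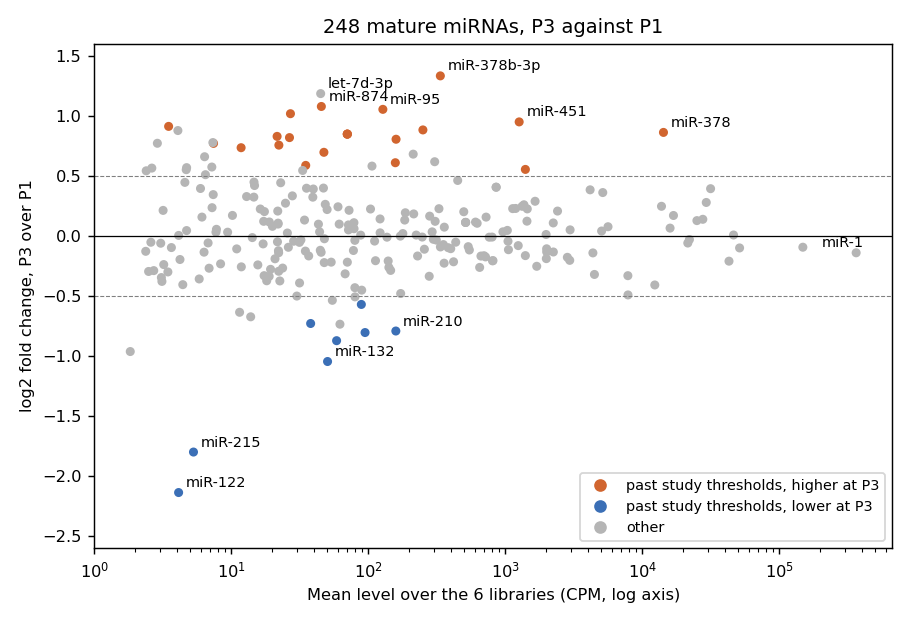
Log2 fold change of P3 over P1 (vertical axis) against the mean CPM of the 6 libraries (horizontal log axis), with 1 point for each of the 248 mature miRNAs. Orange and blue points pass the thresholds of the study, 21 higher and 8 lower at P3, and the dashed lines are at 0.5 and -0.5. The abundant miR-1 lies near 0, and the points farthest below 0 are miR-122 and miR-215, both under 10 CPM.

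The miRNAs named below are the 5 with the smallest p and the 10 most abundant. The 4 most abundant tested members of each of 14 lists of miRNA families and marker miRNAs are named too. Added with their values known were miR-194a, miR-199a-3p, miR-199b-3p, miR-376a-3p, miR-424-3p and miR-6782-3p. Others (miR-132, miR-874, miR-142-3p, miR-142-5p, miR-150, miR-30b-5p, miR-29a, miR-29b, miR-29c, miR-98, miR-206, miR-499-3p, miR-221-3p, miR-221-5p, miR-222, miR-143-5p, miR-17-3p, miR-582, miR-3613, miR-190a, miR-708-5p, miR-490, miR-27b-5p, miR-193a-5p, miR-193a-3p, miR-7134-3p, miR-7134-5p, let-7d-3p, let-7d-5p, let-7e, miR-184, miR-204, miR-504, miR-133a-5p, miR-30c-1-3p, miR-24-1-5p and miR-24-2-5p) were chosen after their values were seen.

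Some miRNAs of energy metabolism were among those with the smallest p, in opposite directions. miR-378 is a miRNA of mitochondrial metabolism, and 1 of its 2 hairpins lies within PPARGC1B, which encodes a coactivator of mitochondrial genes, in the RefSeq annotation of the pig. Its level was 9916, 9772 and 10734 CPM in P1 replicates 4, 5 and 6 and 12744, 15536 and 27063 CPM in the P3 replicates of the same numbers. All 3 P3 libraries were above the 3 P1 libraries, which lay close together, and P3 replicate 6 was far above the other P3 libraries. It averaged 10140 ± 519 CPM at P1 and 18448 ± 7591 CPM at P3 (SD, n = 3 each), a log2 fold change of 0.86 (SE 0.24, edgeR adjusted p = 0.129). Without P3 replicate 6 the log2 fold change was 0.45, and the adjusted p of 0.0367 in the fit of 12 libraries became 0.101. In bulk tissue, more cells that make a miRNA and more of it per cell cannot be told apart, and this holds for every value below.

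miR-378b-3p comes from another hairpin of the same family, which lies within RGS3. It was at 177, 217 and 179 CPM in the P1 libraries and at 298, 342 and 804 CPM in the P3 libraries. Again no P3 library reached down to P1, and P3 replicate 6 was the highest. The log2 fold change of 1.33 (SE 0.34, edgeR adjusted p = 0.129) was the highest of the 248 names, and it was 0.72 without P3 replicate 6. In the fit of 12 libraries it was called with that library (adjusted p = 0.0154) and without it (adjusted p = 0.0394).

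The hypoxia-induced miR-210 went the other way. Its level was 220, 216 and 169 CPM at P1 and 135, 136 and 77.8 CPM at P3. The groups did not overlap, and P3 replicate 6 was the lowest library. The log2 fold change was -0.79 (SE 0.25, edgeR adjusted p = 0.169), or -0.59 without P3 replicate 6, and in the fit of 12 libraries its adjusted p was 0.0319 with that library and 0.0517 without it. miR-22-3p, a miRNA of cardiac metabolism and growth, had a log2 fold change of 0.04 (SE 0.25). Of the 6 names on the list of miR-378 and metabolic miRNAs, 5 were tested. Past the thresholds of the study were 2 higher and 1 lower, against 11.7% of all names, and the median log2 fold change of the list was 0.11, against 0.02 for all names tested. That median was -0.34 without P3 replicate 6.

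miR-95, which is on none of the lists, had the second smallest p. It was measured at 74.2, 68.6 and 106 CPM at P1 and at 151, 137 and 230 CPM at P3. The lowest P3 library was above the highest P1 library, and replicate 6 was the highest of each age. The level was 2.08-fold higher at P3, a log2 fold change of 1.06 (SE 0.26, unadjusted p = 0.00196, edgeR adjusted p = 0.129). It was 0.75 without P3 replicate 6. The adjusted p was 0.0154 in the fit of 12 libraries and 0.0483 in that fit without P3 replicate 6.

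**Figure D2:**
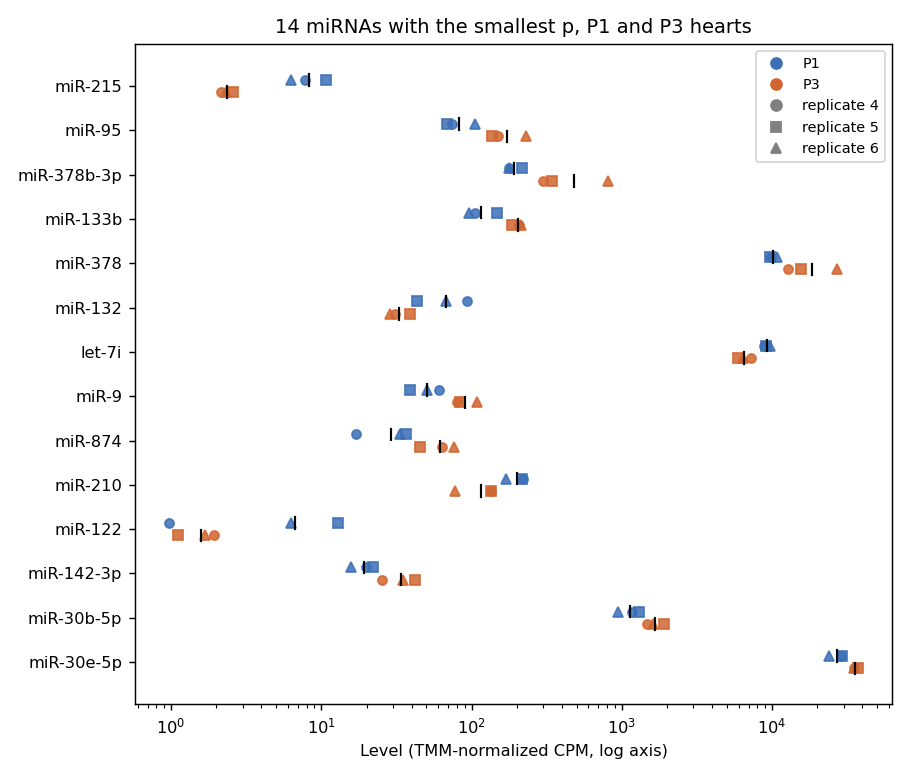
Levels in CPM (horizontal log axis) of the 14 miRNAs with the smallest p, with miR-9 shown once for its 3 names. Blue symbols are the 3 P1 libraries, orange symbols the 3 P3 libraries, shapes give the replicate number and black ticks the mean of an age. The ages overlap for miR-122 alone among these 14, where P1 replicate 4 was at 0.976 CPM, and P3 replicate 6 lies apart from the other P3 libraries for miR-378b-3p and miR-378.

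Among the muscle miRNAs, miR-133b differed without overlap, whereas the most abundant ones overlapped between the ages. miR-133b, made together with the skeletal muscle miRNA miR-206, was at 106, 147 and 95.6 CPM at P1 and at 208, 187 and 214 CPM at P3. The P3 libraries lay close together above all P1 libraries. The log2 fold change was 0.81 (SE 0.22, edgeR adjusted p = 0.129) and 0.75 without P3 replicate 6, and the fit of 12 libraries gave an adjusted p of 0.0154 with that library and 0.0394 without it. miR-206, which lies beside miR-133b in the pig annotation, was at 14.3, 16.7 and 15.4 CPM at P1 and at 15.6, 29.0 and 38.7 CPM at P3. P3 replicate 4 of miR-206 was within the P1 range, and its log2 fold change of 0.83 (SE 0.32, edgeR adjusted p = 0.28) was 0.50 without P3 replicate 6.

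miR-1 itself was at 397356, 402372 and 346736 CPM at P1 and at 352030, 389207 and 299499 CPM at P3. The groups overlapped, and the log2 fold change was -0.14 (SE 0.14, edgeR adjusted p = 0.762). miR-133a-3p (log2 fold change 0.25, SE 0.16), miR-499-5p (0.07, SE 0.14) and miR-208b (0.23, SE 0.19), the next most abundant muscle miRNAs, overlapped between the ages as well, and so did the scarcer miR-133a-5p (-0.11, SE 0.20). The scarce 3′ strand of the miR-499 hairpin, miR-499-3p, did not overlap, with 2.93 to 7.05 CPM at P1 and 9.02 to 10.2 CPM at P3. Of the 8 muscle names, 6 had a log2 fold change above 0 (52% of all names), 3 passed the thresholds of the study in the higher direction (against 8.47% of all names), and the median was 0.24. With 1 library at a time left out, 1 or 2 passed: miR-133b did so in all 6 fits and miR-206 and miR-499-3p in 1 each.

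The let-7 family is known to accumulate as cells differentiate, and its levels were lower at P3 for 8 of its 9 tested names, against 48% of all names. let-7i was at 8789, 9135 and 9675 CPM at P1 and at 7225, 5976 and 6440 CPM at P3. The spread within each age was small and the groups were well apart. The log2 fold change was -0.49 (SE 0.14, edgeR adjusted p = 0.129) and -0.51 without P3 replicate 6, and the adjusted p of the fit of 12 libraries was 0.0154, or 0.0483 without that library. It lay under the fold threshold of the study in size.

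let-7f was at 13010, 14258 and 15003 CPM at P1 and at 11992, 10442 and 9430 CPM at P3, without overlap, and its log2 fold change was -0.41 (SE 0.14, edgeR adjusted p = 0.224). let-7a, with a log2 fold change of -0.32 (SE 0.16), miR-98 (-0.48, SE 0.20) and let-7e (-0.21, SE 0.17) did not overlap either. In let-7g (-0.33, SE 0.15) P3 replicate 4 was level with the lowest P1 library, at 8123 CPM against 8121 CPM. In all, 5 of the 9 names were lower at P3 without overlap, against 5.24% of all names tested, and the median log2 fold change was -0.32. The members of this family have near-identical sequences, so shared reads may tie their values to each other. The summed level of the family was 38720 to 42390 CPM at P1 and 28540 to 35620 CPM at P3. The exception was let-7d-3p, the other strand of the let-7d hairpin, which is described with P3 replicate 6.

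The listed names of miR-29 and miR-30 had higher levels at P3 for 11 of 12, against 52% of all names. The list does not hold miR-30c-1-3p, which was at a log2 fold change of -0.05 (SE 0.28), so that 11 of 13 were higher with it. miR-29 is known to restrain collagen genes, and miR-30 is abundant in cardiomyocytes. miR-30e-5p was at 28667, 29190 and 23953 CPM at P1 and at 35206, 37369 and 34959 CPM at P3, and every P3 library was higher than every P1 library. The log2 fold change was 0.39 (SE 0.14, edgeR adjusted p = 0.208). miR-30b-5p, at 1166, 1297 and 947 CPM and at 1472, 1924 and 1612 CPM, differed by 0.56 on the log2 scale (SE 0.18, edgeR adjusted p = 0.169). Without P1 replicate 6, miR-30e-5p was at 0.23 and miR-30b-5p at 0.36.

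miR-30c-5p (log2 fold change 0.38, SE 0.16, or 0.22 without P1 replicate 6) also did not overlap, whereas miR-30a-5p (0.13, SE 0.15) and miR-30d (0.01, SE 0.14), both more abundant, did. miR-29b had 1.95 to 2.99 CPM at P1 and 3.50 to 5.34 CPM at P3, a log2 fold change of 0.91 (SE 0.39), and miR-29a (0.40, SE 0.36) and miR-29c (0.78, SE 0.39) overlapped between the ages. With 1 library at a time left out, miR-29a ran from -0.23 to 0.61 and miR-29c from 0.30 to 0.97. Without overlap and higher at P3 were 4 of the 12 names, against 11.3% of all names, and the median log2 fold change was 0.36 and stayed between 0.19 and 0.45 when 1 library at a time was left out. Under each scaling that was tried, this median was above 0 and that of the let-7 family below 0.

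**Figure D3:**
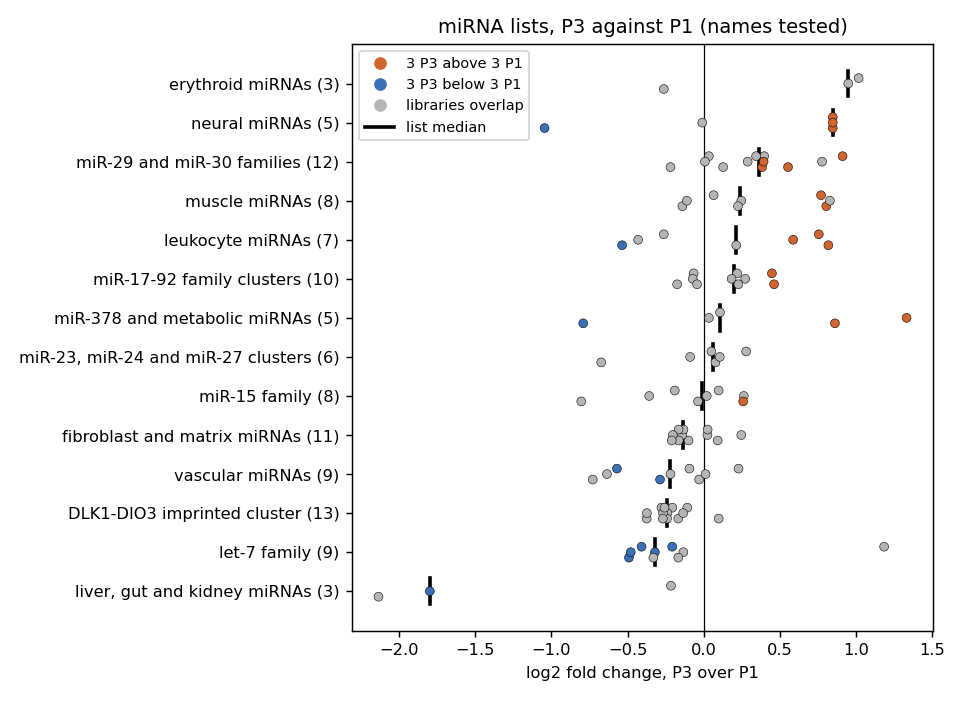
Log2 fold change of P3 over P1 for the tested members of 14 miRNA lists, ordered by the median of the list (black bar), with the number of tested names in brackets. Orange points have 3 P3 libraries above all 3 P1 libraries, blue points 3 below, and gray points overlap. The let-7 family has 5 blue points and the miR-29 and miR-30 families have 4 orange points, while the DLK1-DIO3 cluster lies below 0 for 12 of 13 names with no blue point.

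The miRNAs of blood cells were higher at P3 in part. miR-451 and miR-144, neighbours that are made in red blood cell precursors, had log2 fold changes of 0.95 (SE 0.34, edgeR adjusted p = 0.247) and 1.02 (SE 0.43, edgeR adjusted p = 0.317). miR-451 was at 512, 1273 and 799 CPM at P1 and at 1040, 2004 and 1956 CPM at P3, so that P1 replicate 5 lay above P3 replicate 4. miR-144 was at 8.46, 30.4 and 14.2 CPM and at 21.0, 43.2 and 45.1 CPM. Both had their lowest value of each age in replicate 4 and overlapped between the ages. The third erythroid miRNA, miR-486, which muscle also makes, had a log2 fold change of -0.26 (SE 0.26). Without P3 replicate 6 these values were 0.80, 0.82 and -0.51. The summed level of the 3 was 1181 to 1822 CPM at P1 and 1502 to 2747 CPM at P3, and none of the 3 was at 0. The part of blood left in the hearts in the other results was not tested.

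Of the 9 names on the leukocyte list, 7 were tested, and 3 passed the thresholds of the study in the higher direction, against 8.47% of all names. That count was 0 without P1 replicate 6, 3 without P1 replicate 5 and 2 without any other library. Both strands of the hematopoietic miR-142 hairpin were among them. miR-142-3p was at 19.8, 22.0 and 15.8 CPM at P1 and at 25.5, 41.8 and 34.7 CPM at P3, a log2 fold change of 0.82 (SE 0.27, edgeR adjusted p = 0.169), and miR-142-5p differed by 0.59 (SE 0.25), or 0.45 without P3 replicate 6. miR-150, a miRNA of mature lymphocytes, was at 16.9, 17.7 and 14.9 CPM and at 32.9, 19.8 and 31.4 CPM, a log2 fold change of 0.76 (SE 0.27). All 3 were higher in every P3 library. The more abundant names of the list were not: miR-155-5p, known from activated leukocytes, was lower in every P3 library (-0.54, SE 0.25), and miR-146b (-0.26, SE 0.31), miR-146a-5p (-0.43, SE 0.29) and miR-342 (0.21, SE 0.22) overlapped. Without P3 replicate 6, miR-146b was at -0.56 and miR-146a-5p at -0.20. The summed level of the list was 378.6 to 529.5 CPM at P1 and 401.3 to 438.6 CPM at P3.

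On the neural list, miR-9 was higher and miR-132 was lower at P3. miR-9, a miRNA of neural progenitors and neurons, was at 61.1, 39.1 and 50.4 CPM at P1 and at 79.6, 83.5 and 108 CPM at P3. The groups did not overlap, the log2 fold change was 0.85 (SE 0.25, edgeR adjusted p = 0.129) and 0.68 without P3 replicate 6, and the fit of 12 libraries gave an adjusted p of 0.0154, or 0.0483 without that library. Since miR-9-1 and miR-9-2 carry the same values, they add nothing to this. miR-132, which neurons and activated fibroblasts and vessels also make, was at 93.0, 43.4 and 68.0 CPM at P1 and at 30.7, 39.0 and 28.7 CPM at P3. P1 replicate 5 was only just above P3 replicate 5, and the log2 fold change was -1.05 (SE 0.30, edgeR adjusted p = 0.129), with an adjusted p of 0.0476 in the fit of 12 libraries and 0.0918 without P3 replicate 6. The most abundant name of the list, miR-128, known to restrain cardiomyocyte proliferation in mice, had a log2 fold change of -0.01 (SE 0.22), with 722, 754 and 936 CPM at P1 and 745, 611 and 1043 CPM at P3. The neuronal marker miR-124a did not reach the count minimum.

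The smallest p of all belonged to miR-215, on the list of liver, gut and kidney miRNAs. It was at 7.81, 10.7 and 6.24 CPM at P1 and at 2.14, 2.59 and 2.34 CPM at P3. These levels rest on few counts, between 24 and 50 in a P1 library and between 7 and 14 in a P3 library. The P3 libraries were nearly equal and far below P1, and the level was 3.48-fold lower at P3, a log2 fold change of -1.80 (SE 0.36, unadjusted p = 0.000365, edgeR adjusted p = 0.0906). The value was -1.81 without P3 replicate 6, and the fit of 12 libraries called it with (adjusted p = 0.0154) and without (adjusted p = 0.0394) that library. The liver miRNA miR-122 had a log2 fold change of -2.14 (SE 0.68, edgeR adjusted p = 0.169), but it was at 0.976, 12.8 and 6.24 CPM at P1 and at 1.95, 1.11 and 1.67 CPM at P3. P1 replicate 4, with 3 counts, lay below the P3 libraries, so that miR-122 was high in only 2 of the 3 P1 hearts. miR-192, which shares its family with miR-215, was more abundant at 421 to 477 CPM at P1 and 350 to 439 CPM at P3. It differed by -0.21 (SE 0.19). The list does not hold miR-194a, which lies beside miR-192, was at -0.14 and overlapped between the ages.

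The families that act on the cell cycle had members on both sides of 0. In the miR-15 family, known to restrain the cell cycle of cardiomyocytes, 4 of 8 names were above 0 and 4 below. Their median log2 fold change was -0.01. Those below 0 include miR-424-3p (-0.36), the other strand of the miR-424 hairpin, which has another seed. miR-16 was at 1432, 1287 and 1019 CPM at P1 and at 1491, 1441 and 1545 CPM at P3, a log2 fold change of 0.26 (SE 0.17) without overlap that was 0.0581 without P1 replicate 6. miR-503, which lies with miR-424 in the genome, was at 177, 115 and 69.9 CPM and at 53.1, 78.7 and 75.2 CPM, a log2 fold change of -0.80 (SE 0.32, edgeR adjusted p = 0.298), with P1 replicate 6 within the P3 range. Neither miR-424-5p (0.02, SE 0.22) nor miR-15b (-0.04, SE 0.23) differed beyond its error.

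Of the 11 names of the miR-17-92 family clusters, which promote proliferation, 10 were tested and 6 were above 0, with a median of 0.20 that was 0.05 without P3 replicate 6. miR-19b was at 437, 366 and 331 CPM at P1 and at 455, 482 and 627 CPM at P3, a log2 fold change of 0.46 (SE 0.21, edgeR adjusted p = 0.328) that was 0.29 without P3 replicate 6, and miR-17-3p (0.45, SE 0.25) also did not overlap. miR-92a (0.23, SE 0.18), miR-20a (-0.17, SE 0.23) and miR-17-5p (-0.07, SE 0.21), encoded beside miR-19b, overlapped between the ages. In both families together, miR-503 alone passed the thresholds of the study, against 11.7% of all names. It did not pass without P1 replicate 4, where miR-503 was at -0.42, or without P3 replicate 4.

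The vascular miRNAs were lower at P3 for 7 of 9 names, against 48% of all names, with a median log2 fold change of -0.22. miR-221-3p and miR-222, neighbours known from endothelial and smooth muscle cells, passed the thresholds of the study in the lower direction, against 3.23% of all names. None of the list passed without P1 replicate 4, where miR-221-3p was at -0.41 and miR-222 at -0.33, or without P3 replicate 4. miR-221-3p was at 129, 97.5 and 92.2 CPM at P1 and at 67.7, 61.0 and 86.5 CPM at P3, a log2 fold change of -0.57 (SE 0.24, edgeR adjusted p = 0.317) without overlap. miR-222 differed by -0.73 (SE 0.32) and overlapped, as did the other strand miR-221-5p (-0.64, SE 0.32), which was at -0.36 without P1 replicate 4.

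The abundant vascular miRNAs showed no such difference. The smooth muscle miRNA miR-143-3p, the second most abundant of all, was at 133416, 169197 and 158251 CPM at P1 and at 121761, 155970 and 154308 CPM at P3 (log2 fold change -0.09, SE 0.15). miR-145-5p from the same cluster (0.01, SE 0.20) and the endothelial miR-126-3p (-0.03, SE 0.16) and miR-126-5p (0.23, SE 0.22) overlapped as well, while the scarcer miR-143-5p was lower without overlap (-0.29, SE 0.19).

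Neither the fibroblast and matrix miRNAs nor the imprinted DLK1-DIO3 cluster held a name without overlap, against 16.5% of all names. The 11 names of fibroblasts and matrix had a median log2 fold change of -0.13. Below 0 were 7 of them (48% of all names), the tied miR-199a-3p and miR-199b-3p included (-0.16 each). Of these, miR-21, a miRNA of fibroblasts and inflamed tissue, was at 48714, 40840 and 48779 CPM at P1 and at 29273, 36034 and 54342 CPM at P3. P3 replicates 4 and 5 were below all P1 libraries and P3 replicate 6 above them, and the log2 fold change of -0.21 (SE 0.20) was -0.53 without P3 replicate 6. miR-148a-3p (-0.10, SE 0.15), miR-152 (-0.14, SE 0.15) and miR-199b-5p (-0.20, SE 0.21) overlapped.

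The DLK1-DIO3 cluster, a set of maternally expressed miRNAs of fetal tissue, was below 0 for 12 of its 13 tested names (48% of all names), and its median log2 fold change was -0.24. The sum of its levels was 1042, 1012 and 1051 CPM at P1 and 708, 991 and 1064 CPM at P3, so that P3 replicate 4 stood below the rest. Without that library the median was -0.05, and without P3 replicate 6 it was -0.41. The most abundant member, miR-127, was at 723, 728 and 659 CPM and at 493, 683 and 705 CPM (log2 fold change -0.17, SE 0.19), and miR-370 (-0.21, SE 0.24), miR-411 (-0.27, SE 0.36) and miR-758 (0.10, SE 0.25) had errors as large as their differences.

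In the miR-23, miR-24 and miR-27 clusters, shared by vessels and cardiomyocytes, 0 of 6 names passed the thresholds of the study (11.7% of all names) or differed without overlap (16.5% of all names), and the median log2 fold change was 0.06. With 6 names, nothing is read from that count. miR-27b-3p, the most abundant of them, was at 25172, 30663 and 23686 CPM at P1 and at 31958, 37161 and 27414 CPM at P3 (0.28, SE 0.16). miR-24-3p (0.08, SE 0.15), miR-23b (0.05, SE 0.17) and miR-27a (0.11, SE 0.17) were closer to 0. The list does not hold miR-24-1-5p (-0.31, SE 0.24) and miR-24-2-5p (0.12, SE 0.23), which overlapped too. miR-26a, the remaining name among the 10 most abundant and on none of the lists, differed by 0.14 (SE 0.14). Of the 10 most abundant names, miR-30e-5p was the only one whose ages did not overlap.

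Some miRNAs outside the lists passed the thresholds of the study. miR-874, within KLHL3, was at 16.9, 36.6 and 33.6 CPM at P1 and at 63.8, 45.1 and 76.8 CPM at P3, a log2 fold change of 1.08 (SE 0.32, edgeR adjusted p = 0.129) and 0.86 without P3 replicate 6. miR-582, within the phosphodiesterase gene PDE4D, was at 124, 147 and 104 CPM and at 178, 237 and 156 CPM (0.61, SE 0.23), also without overlap, but it was at 0.39 without P3 replicate 5 and passed the thresholds in 3 of the 6 fits that left out 1 library. miR-190a, within the talin gene TLN2, was at 41.3, 37.2 and 30.5 CPM and at 80.7, 61.0 and 34.1 CPM (0.70, SE 0.31). In miR-190a it was P3 replicate 6 that stayed at the P1 level, and without it the log2 fold change was 0.95. It was 0.39 without P3 replicate 4, and miR-190a passed the thresholds in 1 of those 6 fits. In the fit of 12 libraries its edgeR adjusted p was 0.193, or 0.0394 without P3 replicate 6. miR-708-5p (0.74, SE 0.33) was higher and miR-3613 (-0.87, SE 0.37) lower at P3, and miR-7134-3p (0.88, SE 0.34), the remaining one, is described with P3 replicate 6. Without that library miR-708-5p was at 0.47 and miR-3613 at -0.63, and each of the 2 passed the thresholds in 2 of the 6 fits. miR-490, within the muscarinic receptor gene CHRM2, was higher without overlap but under the fold threshold (0.41, SE 0.18).

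P3 replicate 6 decided several of the values. let-7d-3p showed this most: it was at 26.3, 34.0 and 21.1 CPM at P1, at 26.1 and 21.2 CPM in P3 replicates 4 and 5, and at 141 CPM in P3 replicate 6. Its log2 fold change of 1.19 (SE 0.63, edgeR adjusted p = 0.465) turned to -0.22 without that library. The other strand of the hairpin, let-7d-5p, did not share this, with 267, 205 and 176 CPM at P3. At P7 and P28, let-7d-3p was between 105 and 127 CPM in each of the 6 libraries, and on the same scale over 12 libraries P3 replicate 6, at 138 CPM, was nearer to these than to the other P3 libraries.

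Both strands of the miR-7134 hairpin were likewise high in P3 replicate 6. miR-7134-3p was at 148, 189 and 191 CPM at P1 and at 223, 207 and 546 CPM at P3, and its log2 fold change of 0.88 (SE 0.34) was 0.26 without that library. miR-7134-5p was at 209 CPM in P3 replicate 6 and at 84.6 to 90.3 CPM in the other P3 libraries. miR-204 was also high in P3 replicate 6, at 30.7 CPM against 5.17 and 13.2 CPM, and miR-504 low, at 153 CPM against 402 and 421 CPM. miR-184, at 97.3, 24.8 and 17.4 CPM in P3 replicates 4, 5 and 6, differed instead through P3 replicate 4: without that library, it was 1 of 3 names that reached an adjusted p under 0.05 by edgeR's test, with miR-378 and miR-378b-3p.

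Without P3 replicate 6, 26 names passed the thresholds of the study, 13 in each direction, and 19 of them were among the 29 of all 6 libraries. Without P1 replicate 6, 20 names passed, 9 higher and 11 lower at P3, and without P1 replicate 4 also 20, 13 higher and 7 lower. The excess of higher over lower names with all 6 libraries was therefore not kept in each of these fits. It also depended on the scaling, since 72.4% of the names past the thresholds were higher with TMM and 60% (18 of 30) with DESeq2's size factors. In all 6 fits that left out 1 library, 10 names passed: miR-95, miR-133b, miR-378b-3p, miR-874 and the 3 names of miR-9 in the higher direction, and miR-132, miR-210 and miR-215 in the lower direction.

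**Figure D4:**
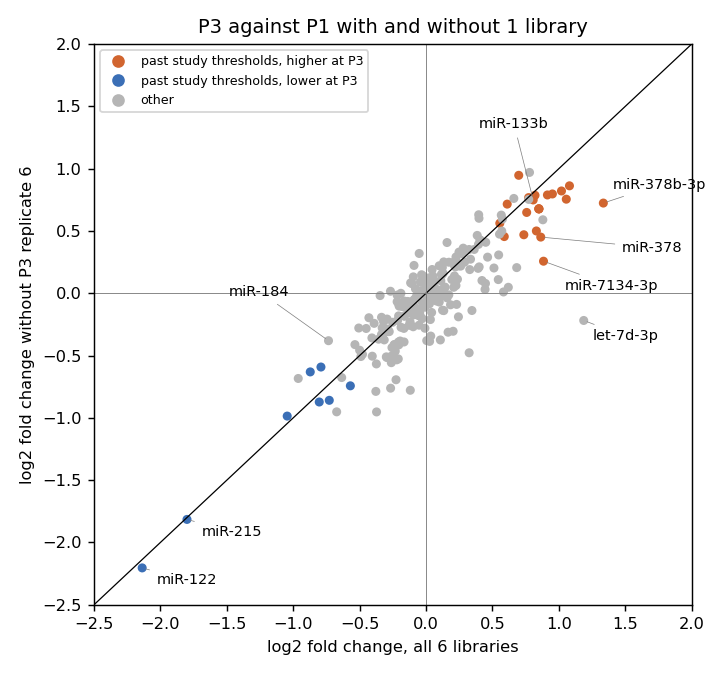
Log2 fold change of P3 over P1 without P3 replicate 6 (vertical axis) against that of all 6 libraries (horizontal axis), 1 point for each miRNA, with the line of equal values. Orange and blue points pass the thresholds of the study with all 6 libraries. miR-215 and miR-133b lie on or near the line, miR-378b-3p moves from 1.33 to 0.72, and let-7d-3p crosses from 1.19 to -0.22.

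Strands of a hairpin, which are cut from 1 transcript, were compared, and so were neighbouring hairpins, which may be. Neighbours were taken by distance alone, and a name with several hairpins can count in more than 1 cluster. Both arms were tested for 50 hairpins. For 17 of them both arms were above 0 and for 11 both were below 0, whereas 22 had arms of unlike sign. miR-142, miR-7134 and miR-221 had arms of like sign, as given above. The arms of miR-27b (miR-27b-3p at 0.28 and miR-27b-5p at -0.67), miR-193a (miR-193a-3p at 0.57 and miR-193a-5p at -0.33) and miR-17 went apart, in each case with the scarcer strand more than its SE away from 0, and the difference between arms was not tested. Without P1 replicate 4, miR-27b-5p was at -0.23. By the RefSeq annotation of the pig, 199 of the 226 precursors of the tested names could be placed and 32 clusters of hairpins no more than 10000 bases apart were found. Log2 fold changes were all above 0 in 7 of the clusters, all below 0 in 7 and on both sides of 0 in 18. These 18 include miR-376a-3p with miR-6782-3p, whose annotated positions fall within many unrelated genes and may lie on separate unplaced sequences. That cluster may not be real. miR-133b and miR-206 (0.81 and 0.83), miR-451 and miR-144 (0.95 and 1.02), and miR-221-3p and miR-222 (-0.57 and -0.73) were alike within their clusters, while the cluster of miR-17 to miR-92a ran from -0.17 to 0.46.

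The later ages, P7 and P28, place the P3 levels in the course after birth. Values in this paragraph are CPM normalized over all 12 small RNA libraries, with the SD over 3 pigs, and they describe the same P1 and P3 libraries as above. miR-210 was at 198 ± 28.0 CPM at P1, 114 ± 32.6 CPM at P3, 71.1 ± 2.74 CPM at P7 and 21.5 ± 0.282 CPM at P28 (n = 3 at each age). miR-95 had means of 81.2 ± 19.8, 169 ± 49.4, 239 ± 30.4 and 579 ± 114 CPM at the 4 ages. Thus the P3 mean lay between those of P1 and P7 for both, though the spreads of miR-95 at P3 and P7 meet. miR-378b-3p (187 ± 22.0, 471 ± 275, 500 ± 108 and 995 ± 39.9 CPM) and miR-142-3p (18.8 ± 3.06, 33.3 ± 7.99, 49.2 ± 7.73 and 57.4 ± 12.0 CPM) followed the same order, though P3 and P7 were within their spread. Without P3 replicate 6 the P3 mean of miR-378b-3p was 313.3 CPM, below the lowest P7 library at 384.4 CPM.

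Other miRNAs departed from that order or had P3 and P7 means within their spread. miR-215 was at 8.07 ± 2.21 CPM at P1 and at 2.31 ± 0.219, 2.39 ± 0.287 and 1.99 ± 0.627 CPM at P3, P7 and P28, so that P1 alone was high. The means of miR-132 were 66.7 ± 24.3, 32.1 ± 5.32, 29.6 ± 4.01 and 19.3 ± 6.11 CPM. let-7i had 9007 ± 437, 6410 ± 618, 6768 ± 239 and 4509 ± 142 CPM, with P3 and P7 level. miR-133b was lower at P7 (157 ± 5.63 CPM) than at P3 (199 ± 13.7 CPM) and highest at P28 (299 ± 49.9 CPM), and miR-9 was highest at P7 (136 ± 6.79 CPM). miR-378 had the same mean at P3 (18062 ± 7432 CPM) as at P7 (17923 ± 3279 CPM) within the spread, where P3 replicate 6, at 26497 CPM, lay within the P28 range of 22345 to 27159 CPM. Without that library the P3 mean of miR-378 was 13844 CPM, below the lowest P7 library at 14144 CPM.

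**Figure D5:**
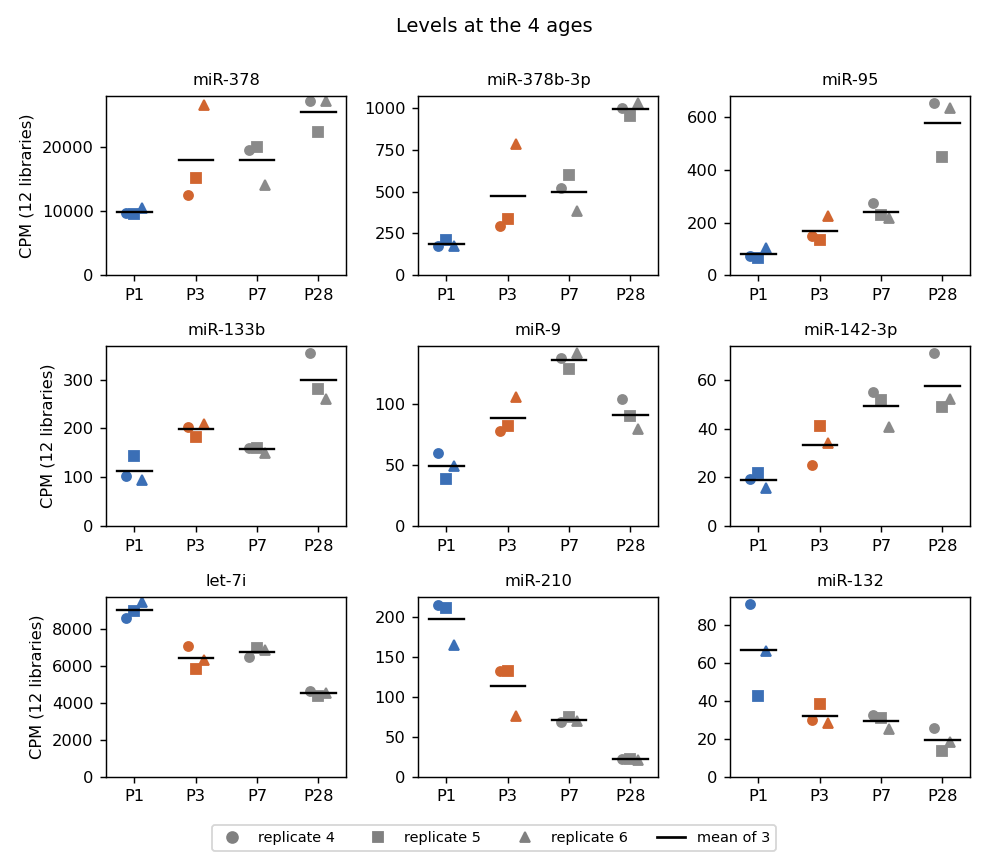
Levels of 9 miRNAs in CPM (vertical axes from 0, normalized over 12 libraries) at P1, P3, P7 and P28, with 1 symbol for each library, shapes for the replicate number and a black line for the mean of 3. P1 is blue, P3 orange and the later ages gray. miR-210 steps down from 198 to 21.5 CPM and miR-95 up from 81.2 to 579 CPM, whereas miR-133b dips at P7.

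The names that were not tested held little signal. Of the 163, 14 had at least 10 counts in 1 or 2 of the 6 libraries, among them miR-338 with 13 and 16 counts in P3 replicates 4 and 6 and 1 to 4 counts in the others, and miR-491 with 23 and 13 counts in P3 replicates 4 and 5 and 4 to 9 in the others. Both were chosen after their values were seen.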

How the data were processed

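Small RNA of whole pig hearts was prepared with the NEBNext Small RNA kit and sequenced by CD Genomics. The authors deposited expected counts for each pair of mature miRNA and precursor of miRBase, without normalization. The study's methods name STAR 2.7.9a and Sscrofa10.2 for alignment and MultiQC 1.11 for quality control, in a passage on circRNA junctions, and whether these also made the miRNA table is not given in the sources used here. Reads that match several precursors were shared between them in the deposited table, as the sums of the shares were whole numbers within 0.035 for 80.4% of values of names with several precursors. The values of 1 mature name were therefore summed and rounded, and names that reached 10 counts in 3 or more of 6 libraries were kept. With 1 value per name and library, depth ranged from 2921130 to 5664510 counts, and a name near the minimum is measured with low precision. No step against PCR copies is described, so a count may not be a separate molecule.

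Analyses used R 4.3.3 with edgeR 4.0.16 (TMM, robust quasi-likelihood F-test, Benjamini-Hochberg adjustment over 248 names), limma 3.58.1 and DESeq2 1.42.0, with plots in Python 3.11.15 and matplotlib 3.10.9. Each library came from 1 pig. Alternatives covered scaling, filter, test, libraries in the fit, a block, the combination of precursors, rounding and leaving out each library. Named are the 5 names of smallest p, the 10 most abundant and the 4 most abundant of each of 14 lists. The members and lists were chosen with earlier results of these data known. Host genes and neighbours are from RefSeq on Sscrofa11.1, another assembly than that of the study, so no positions are given.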

Additional observations from a re-analysis of the deposited data

How the results depend on the processing

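The number of miRNAs at an adjusted p under 0.05, 0 by edgeR's quasi-likelihood test on 6 libraries, was 11 with DESeq2's Wald test (8 higher, 3 lower at P3), 11 with all 12 libraries in the fit (7 higher, 4 lower), 9 in that fit without P3 replicate 6 (7 higher, 2 lower), 1 with each pair of mature miRNA and precursor (lower) and 0 to 3 with 1 library left out (0 to 2 higher, 0 to 1 lower). It was 0 with DESeq2's size factors, total counts, no filter, at least 50 counts in all 6 libraries, limma voom, the largest value over precursors, names repeated over all 12 libraries counted once, unrounded counts and the newer quasi-likelihood dispersion of edgeR. That dispersion and that fit of 11 libraries were chosen after seeing the data. By the thresholds of the study, 29 names passed, 20 to 37 over the alternatives, and with 1 library left out 20 to 28 (9 to 20 higher, 7 to 13 lower). Lower at P3 were 5 with limma voom and 13 with each pair, and higher were 12 in the fit of 12 libraries without P3 replicate 6. With the column number as a replicate block, 2 names passed an adjusted p of 0.05, both higher (miR-95 and miR-451), and 29 the thresholds of the study (23 higher, 6 lower). The deviations of same-numbered libraries correlated at 0.09, 0.07 and 0.23, and those of unlike numbers at -0.18 to 0.094. With 3 libraries at each age, these values cannot decide whether the numbers pair pigs. No label joins a P1 pig with a P3 pig, so no pairing was used in the main fit. P3 replicates 4 and 6 correlated best with the P1 library of their own number, and P3 replicate 5 with P1 replicate 4 (0.094, against 0.070 with its own).

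The log2 fold changes in this paragraph had the opposite sign to that of edgeR's test on the 6 libraries. For miR-204 and miR-504, the log2 fold change of that test is not given above. ssc-miR-30d was at -0.0312 with DESeq2's size factors and with its Wald test, -0.0214 with at least 50 counts, -0.0706 for its pair and -0.0199 in the fit of 11 libraries. ssc-miR-22-3p was at -0.013 by size factors, -0.0129 by Wald test, -0.00548 with at least 50 counts, -0.0498 for its pair, -0.32 in the fit of 11 libraries, -0.0345 with limma voom and -0.0174 with the replicate block. ssc-miR-424-5p was at -0.00801 by size factors, -0.00748 by Wald test, -0.00267 with at least 50 counts and -0.0471 for its pair, and ssc-miR-145-5p at -0.0158 in the first 2 of these, -0.00979 and -0.0552. For their pairs, ssc-miR-499-5p was at -0.0144, ssc-miR-24-3p at -0.0106 and ssc-miR-23b at -0.0227. With total counts, ssc-miR-126-3p was at 0.0101, ssc-miR-15b at 0.00865 and ssc-miR-128 at 0.034, and with repeated names counted once ssc-miR-128 was at 0.00215. The fit of 11 libraries gave 0.0377 for ssc-miR-15b, -0.0306 for ssc-miR-24-3p, -0.0644 for ssc-miR-126-5p, -0.0477 for ssc-miR-758, -0.20 for ssc-let-7d-3p, -0.46 for ssc-miR-204 and 0.25 for ssc-miR-504.

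With 1 library left out, log2 fold changes that changed sign ran in let-7d-3p from -0.22 to 1.55, miR-126-3p from -0.20 to 0.0106, miR-126-5p from -0.0897 to 0.35, miR-128 from -0.28 to 0.10, miR-143-3p from -0.20 to 0.00689, miR-145-5p from -0.24 to 0.21, miR-15b from -0.25 to 0.11, miR-17-5p from -0.27 to 0.0797, miR-208b from -0.0209 to 0.34, miR-204 from -0.48 to 0.72, miR-20a from -0.46 to 0.0313, miR-22-3p from -0.34 to 0.17, miR-23b from -0.12 to 0.18, miR-24-3p from -0.0621 to 0.12, miR-27a from -0.0223 to 0.13, miR-29a from -0.23 to 0.61, miR-30a-5p from -0.045 to 0.19, miR-30c-1-3p from -0.26 to 0.12, miR-30d from -0.12 to 0.0888, miR-411 from -0.76 to 0.0428, miR-424-5p from -0.21 to 0.12, miR-499-5p from -0.0207 to 0.0965, miR-504 from -0.34 to 0.22 and in miR-758 from -0.0705 to 0.29. The cause of these changes was not tested. A name near the count minimum is measured with few reads.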
